A study of Bos taurus with 40 samples.

Results

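The RNA levels of imprinted genes were examined in 4 tissues of Korean cattle. Of 10 imprinted genes chosen by symbol, DLK1, MEG3, H19, PEG3, PEG10, MEST, NNAT, PLAGL1, CDKN1C and GNAS, 9 were present among the 13570 genes of the count tables, whereas PEG3 was not analysed here. The animals were 5 cows and 5 bulls, slaughtered at over 22 months of age with a carcass of 353 ± 36 kg, and RNA was sequenced from their liver, fat of the abdomen, the longissimus dorsi (a back muscle) and pituitary gland. Each animal gave 1 library per tissue, so 40 libraries fall into 8 groups of 5, and no group carried a treatment or a mutation. The study compared the sexes within tissues, and the tissues came from the same animals. Whole pieces of tissue were used, so fewer cells of a type and less RNA per cell cannot be told apart in any value given here.

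An imprinted gene is transcribed mainly from the copy inherited from 1 parent. The parental choice is set by methylation of control regions in the egg or the sperm, which hold clusters of neighbouring genes in opposite states, and many imprinted genes act on growth, metabolism and hormone secretion. DLK1, PEG10, MEST, NNAT and PLAGL1 are known as genes expressed from the paternal copy, and MEG3, H19 and CDKN1C as genes expressed from the maternal copy. GNAS gives several transcripts with different parental origin. Counts of reads per gene do not separate the parental copies, so the values below are total levels and say nothing of imprinting itself.

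All 40 libraries held between 5173092 and 19165864 reads on genes, with a median of 10005607. Levels are CPM, the reads on a gene relative to the reads of its library, scaled by TMM factors over the 40 libraries, and a floor of 3 reads was worth 0.132 to 0.793 CPM. The markers of each labelled tissue were highest in that tissue, while ADIPOQ, a defining marker of fat cells, was not analysed here. The liver library labelled bull 3 held the X-inactivation RNA XIST at 1401 CPM, against 0.0841 to 1.39 CPM in the other 19 male libraries and 316 to 2371 CPM in the 20 female ones. USP9Y of the Y chromosome had no read in the library labelled bull 3. It was at 1.78 CPM in the fat library of bull 5, against 28.1 to 34.1 CPM in the fat of the other bulls and at most 0.137 CPM in the female libraries. The liver libraries labelled bull 3 and cow 4 were also the closest of all pairs within tissues. The pair still differed by more than sampling noise, with a chi-square of 15.8 per degree of freedom over genes. Leaving out the liver library labelled bull 3 changed no call of the 9 genes. The sex differences named for liver are given with and without it. The fat library of bull 5 had the lowest mean correlation with the other fat libraries, 0.906 against 0.920 to 0.958. None of the 9 genes was called between the sexes in fat with or without it.

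The first comparison asked in which tissue each gene was highest. Of the 9 genes, 7 had their highest mean level in pituitary gland, H19 had it in muscle, CDKN1C in fat, and none in liver. Of all 13148 genes tested, 27.6% had their highest mean in pituitary gland, 24.7% in muscle, 24.7% in fat and 23% in liver. Each of the 9 genes was above each of the other 3 tissues in its highest tissue by edgeR's quasi-likelihood test with Benjamini-Hochberg adjustment, whereas 15.5% of all genes met this for pituitary gland, 13% for muscle and 11.4% for fat. The 6 pairs of tissues share libraries and are therefore not independent of each other. The 9 genes were chosen with earlier results of these data known, so their counts beside all genes are no test of the list.

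**Figure D1:**
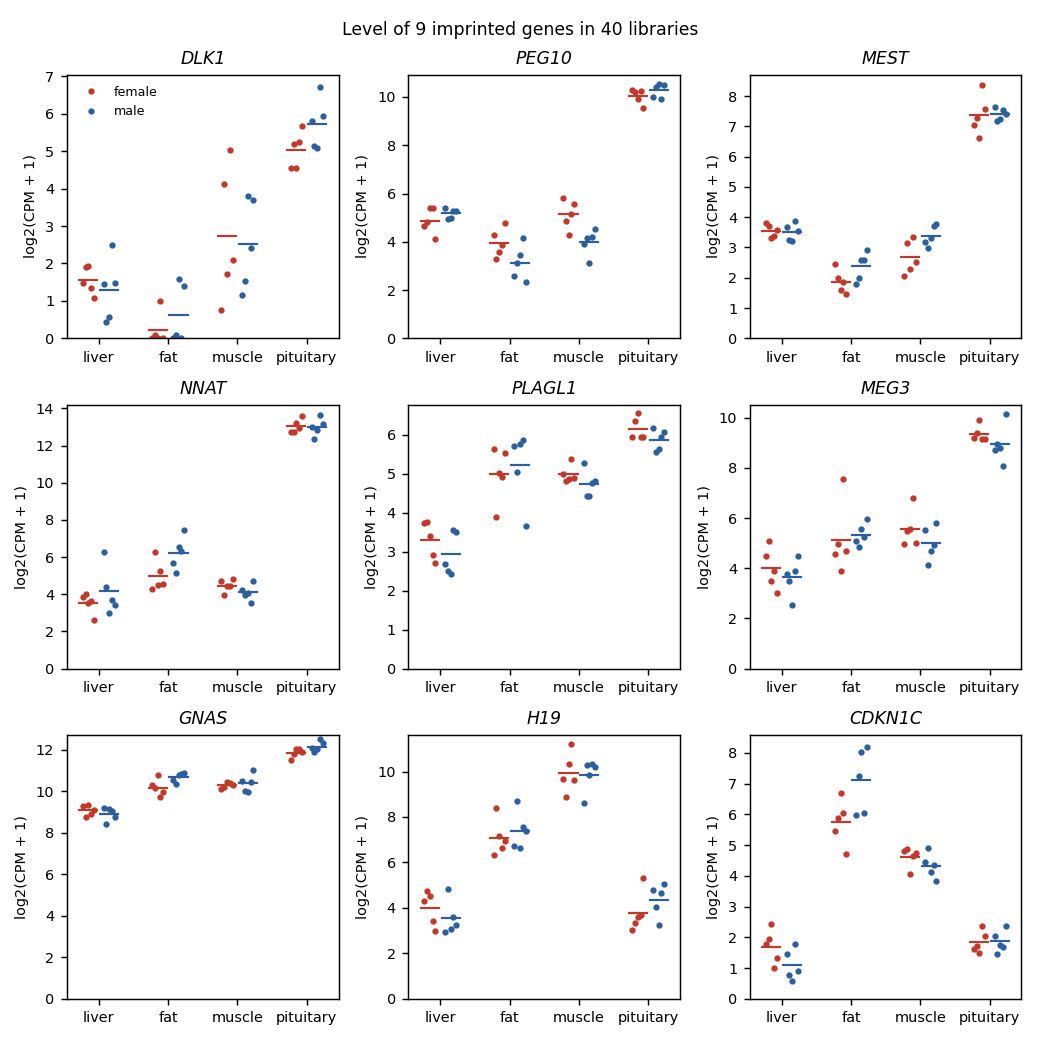
Level of each gene as log2(CPM + 1) in liver, fat, muscle and pituitary gland; each point is 1 animal (red, cows; blue, bulls) and each line the mean of 5 animals. DLK1, PEG10, MEST, NNAT, PLAGL1, MEG3 and GNAS stand highest in pituitary gland, H19 in muscle and CDKN1C in fat.

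NNAT encodes neuronatin, a small membrane protein of neural and endocrine cells. It ranged from 5232 to 12809 CPM in pituitary gland, with a median of 8027 CPM. In fat it ranged from 18.1 to 174 CPM with a median of 43.7 CPM, in muscle from 10.6 to 27.3 CPM with a median of 19.04 CPM, and in liver from 5.06 to 76.5 CPM with a median of 11.6 CPM. The lowest pituitary library thus stood far above the highest of the 30 others, and pituitary gland held 98.9% of the sum of the 4 tissue means. The level was 154-fold higher in pituitary gland than in fat (log2 difference 7.27 ± 0.47, SE, quasi-likelihood adjusted p = 2.33e-17, higher in 10 of 10 animals), 438-fold higher than in muscle and 513-fold higher than in liver. Fat was above muscle by 2.84-fold (adjusted p = 0.000615), and above liver by 3.33-fold, or 5.08-fold without bull 1, whose liver held the 76.5 CPM. Muscle and liver, the lowest neighbours in the order, did not differ beyond the spread (log2 difference 0.23 ± 0.37, adjusted p = 0.621), although muscle was above liver without bull 1 (adjusted p = 0.0452).

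PEG10 was derived from a retrotransposon and encodes a capsid-like protein. Its levels were 755 to 1470 CPM in pituitary gland (median 1199 CPM), 16.1 to 41.0 CPM in liver (median 34.1 CPM), 7.67 to 55.7 CPM in muscle (median 20.5 CPM) and 4.10 to 26.6 CPM in fat (median 10.4 CPM). Again the 10 pituitary libraries lay above all 30 others. The level in pituitary gland was 35.5-fold that of liver (log2 difference 5.15 ± 0.31, adjusted p = 1.38e-18), 47.2-fold that of muscle and 99.7-fold that of fat. Liver and muscle were each above fat, by 2.81-fold and 2.11-fold, whereas liver and muscle did not differ beyond the spread (log2 difference 0.41 ± 0.27, adjusted p = 0.186), except when cow 5 was left out (adjusted p = 0.0383).

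MEST, which encodes a protein of the alpha/beta hydrolase fold, followed the same order as PEG10. It ranged from 96.2 to 328 CPM in pituitary gland, with a median of 161 CPM. The ranges were 8.38 to 13.8 CPM in liver, 3.17 to 12.7 CPM in muscle and 1.73 to 6.57 CPM in fat. Pituitary gland exceeded liver by 16.3-fold (log2 difference 4.02 ± 0.24, adjusted p = 9.23e-19), muscle by 23.1-fold and fat by 49.6-fold. All 6 pairs of tissues passed the threshold. The pair of liver and muscle passed it narrowly (1.42-fold, adjusted p = 0.0463), and lost it when any of 7 of the 10 animals was left out, namely cows 1, 2, 3 and 5 and bulls 1, 2 and 4, with adjusted p up to 0.161.

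DLK1 encodes a membrane protein related to the Notch ligands that holds precursor cells of fat and other tissues undifferentiated. It ranged from 22.3 to 104 CPM in pituitary gland, from 0.690 to 31.6 CPM in muscle, from 0.358 to 4.60 CPM in liver and from 0 to 2.01 CPM in fat. In fat, 5 of the 10 libraries held no read and 7 held fewer than 3, so that its level there is at or near the floor. The muscle of cow 4, at 31.6 CPM, lay above the lowest pituitary libraries, and the 2 tissues overlapped. The level in pituitary gland was 4.995-fold that of muscle (log2 difference 2.32 ± 0.59, adjusted p = 0.000675, higher in 10 of 10 animals), 22.5-fold that of liver and 96.7-fold that of fat. Muscle was above liver by 4.50-fold in the fit, with the higher value in 6 of 10 animals, and liver above fat by 4.30-fold. Without bull 3 the difference of liver from fat was 6.69-fold and that of pituitary gland from fat 146-fold. Each of the 6 pairs passed the threshold.

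PLAGL1 encodes a zinc finger transcription factor and was spread most evenly over the tissues, with 46.5% of the summed means in pituitary gland. It ranged from 45.8 to 93.1 CPM there, from 11.6 to 57.6 CPM in fat, from 20.5 to 40.3 CPM in muscle and from 4.35 to 12.6 CPM in liver. The pituitary libraries overlapped those of fat and not those of muscle. The difference from fat was 1.71-fold (log2 difference 0.78 ± 0.23, adjusted p = 0.00303, higher in 9 of 10 animals) and that from liver 7.83-fold. Over all libraries, fat and muscle did not differ beyond the spread (log2 difference 0.39 ± 0.23, adjusted p = 0.140). Fat was above muscle without bull 5 (adjusted p = 0.0124) and without the fat library of bull 5 alone (adjusted p = 0.0405), which held the lowest PLAGL1 level in fat.

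Of the genes known for expression from the maternal copy, MEG3, a long non-coding RNA that neighbours DLK1, was also highest in pituitary gland. It ranged from 271 to 1129 CPM there, with a median of 565 CPM. The ranges were 13.8 to 188 CPM in fat, 16.5 to 111 CPM in muscle and 4.83 to 33.3 CPM in liver. The pituitary libraries did not overlap with any other tissue. Their level exceeded that of fat by 12.7-fold (log2 difference 3.67 ± 0.39, adjusted p = 4.02e-11), that of muscle by 14.4-fold and that of liver by 41.2-fold. Fat and muscle did not differ beyond the spread (log2 difference 0.18 ± 0.35, adjusted p = 0.687), and without cow 4 the sign of that difference turned.

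GNAS encodes the stimulatory G protein alpha subunit, through which many hormone receptors raise cyclic AMP. It ranged from 2936 to 5815 CPM in pituitary gland, from 840 to 1898 CPM in fat, from 1000.4 to 2084 CPM in muscle and from 341 to 643 CPM in liver. The order was pituitary gland, then fat and muscle, then liver, and pituitary gland held 56.1% of the summed means. Pituitary gland exceeded fat by 2.95-fold (log2 difference 1.56 ± 0.18, adjusted p = 6.80e-10), muscle by 3.14-fold and liver by 7.97-fold. Fat and muscle did not differ beyond the spread (log2 difference 0.09 ± 0.18, adjusted p = 0.693). The several transcripts of the locus, which differ in parental origin, are counted under 1 symbol.

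In all, the 10 pituitary libraries lay above all 30 others for 5 genes, MEG3, PEG10, MEST, NNAT and GNAS. Of all genes tested, 7.23% showed this for pituitary gland. The markers of connective tissue, 5 of 5 present and none at 0 throughout, summed to 289 to 1020 CPM in pituitary gland and to 7784 to 37140 CPM in fat. The hormone genes that mark pituitary gland, 6 of 6 present, summed to between 81945 and 285260 CPM there and to at most 386 CPM in any library of another tissue. The markers of nerve and glia, 5 of 5 present and none at 0 throughout, were also high in pituitary gland, at 273 to 334 CPM against at most 52.7 CPM in any other library. The part of the tissue's cell types in these differences was not tested.

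H19 and CDKN1C had another order. H19, a long non-coding RNA that is abundant in fetal tissues and in skeletal muscle, ranged from 393 to 2349 CPM in muscle (median 1049 CPM), from 78.8 to 420 CPM in fat (median 132 CPM), from 7.13 to 39.1 CPM in pituitary gland (median 13.5 CPM) and from 6.72 to 27.7 CPM in liver (median 10.4 CPM). Muscle and fat overlapped only by the muscle of bull 1 and the fat of bull 2. The level in muscle was 6.12-fold that of fat (log2 difference 2.61 ± 0.37, adjusted p = 7.14e-08, higher in 10 of 10 animals), 58.4-fold that of pituitary gland and 74.3-fold that of liver. Fat was above pituitary gland by 9.54-fold, and pituitary gland and liver did not differ beyond the spread (log2 difference 0.35 ± 0.36, adjusted p = 0.403).

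CDKN1C encodes p57, an inhibitor of cyclin-dependent kinases. It ranged from 25.0 to 293 CPM in fat, from 13.3 to 28.9 CPM in muscle, from 1.76 to 4.21 CPM in pituitary gland and from 0.483 to 4.35 CPM in liver. Fat overlapped with muscle only in the library of cow 5, its lowest. The level in fat was 4.98-fold that of muscle (log2 difference 2.32 ± 0.34, adjusted p = 1.81e-07, higher in 9 of 10 animals), 40.5-fold that of pituitary gland and 57.8-fold that of liver. Muscle exceeded pituitary gland by 8.14-fold, and pituitary gland and liver did not differ beyond the spread (log2 difference 0.51 ± 0.36, adjusted p = 0.215). Thus H19 and CDKN1C, which lie near each other on 1 chromosome, were both low in liver and pituitary gland and high in muscle and fat, in opposite order.

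Counted by pairs of tissues, 9 of 9 genes passed the threshold between fat and pituitary gland, where 64.6% of all genes passed it. Of these, 7 were higher in pituitary gland (all genes, 32.8%) and 2 lower (31.8%). Between muscle and pituitary gland 9 of 9 passed (all genes, 64%), again 7 higher in pituitary gland (32.5%) and 2 lower (31.5%). Between liver and pituitary gland 7 of 9 passed (64.5%), of which 7 were higher in pituitary gland (35.1%) and none lower (29.4%), with a median log2 difference of 4.02 over the 9 genes against 0.12 over all genes. Between liver and fat 9 of 9 passed (64.3%), 6 of them higher in fat (35.4%) and 3 lower (28.9%). Between liver and muscle 7 of 9 passed (62.1%), 6 of them higher in muscle (34%) and 1 lower (28%). Between fat and muscle 6 of 9 passed (59.6%), 4 of them higher in muscle (26.8%) and 2 lower (32.8%). With the animal as a block, by the ear tag that the 4 tissues share, each gene passed the threshold in as many pairs as without it.

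**Figure D2:**
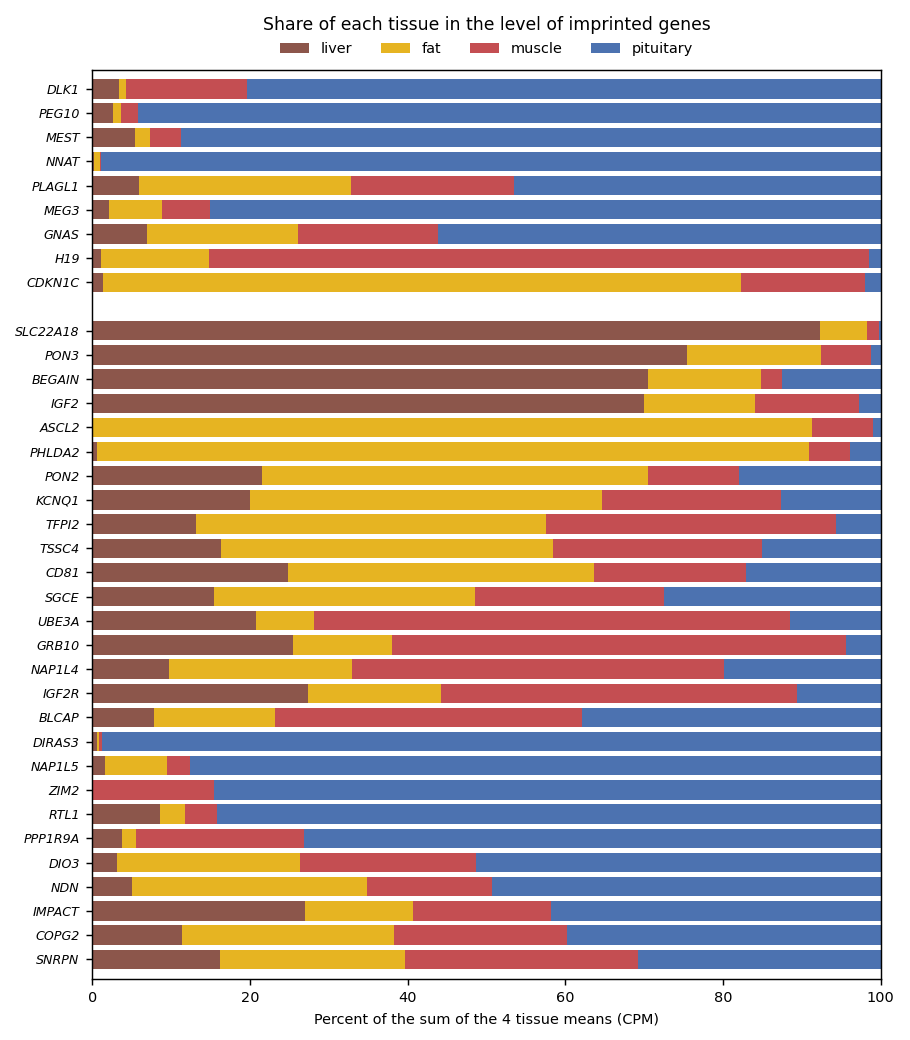
Percent of the sum of the 4 tissue means in CPM that each tissue holds, for the 9 genes (top block) and 27 other imprinted genes (bottom block, ordered by highest tissue). Pituitary gland holds 98.9% for NNAT and 46.5% for PLAGL1, muscle 83.7% for H19 and fat 81.0% for CDKN1C.

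A list of 40 other imprinted genes was set beside these, of which 28 were in the tables and 27 had reads. Of the 27, 10 had their highest mean in pituitary gland (all genes, 27.6%), 8 in fat (24.7%), 5 in muscle (24.7%) and 4 in liver (23%). In 8, 5, 4 and 4 of them respectively the highest tissue was above each other tissue. Of all genes, 15.5%, 11.4%, 13% and 13.6% met this, in the same order of tissues. DIRAS3, a small GTPase, stood at 573 to 1171 CPM in pituitary gland and at 9.18 CPM or less in each of the 30 other libraries, a difference from liver of 171-fold. NAP1L5, a gene of the nucleosome assembly protein family, was 11.1-fold higher in pituitary gland than in fat, the tissue next in order. SLC22A18, a transporter gene, was 15.3-fold higher in liver than in fat.

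Each of the 4 listed genes that were paired below with a member differed from it in the order of the tissue means. Other listed genes of the same clusters were mixed, and they are named here after their values were seen. BEGAIN, of the cluster of DLK1 and MEG3, was highest in liver. Of the cluster of PEG10, TFPI2 and PON2 were highest in fat and PON3 in liver. Of the cluster of CDKN1C, SLC22A18 was highest in liver and NAP1L4 in muscle. Others had the same order or the same highest tissue as the member. PHLDA2 and ASCL2 had the order of CDKN1C, from fat to liver. KCNQ1, CD81 and TSSC4 were also highest in fat, although TSSC4 did not differ there from muscle beyond the spread (quasi-likelihood adjusted p = 0.174). Outside fat, however, the means of PHLDA2 were at most 0.131 CPM and those of ASCL2 at most 0.0544 CPM. These are at or below the floor, and ASCL2 was near it in fat as well, at 0.646 CPM. The order of the lower tissues is therefore uncertain for both. DIO3 had the order of MEG3, although its fat and muscle did not differ beyond the spread. RTL1 was highest in pituitary gland like DLK1 and MEG3, but at a mean of only 0.492 CPM, near the floor. PPP1R9A was highest there like PEG10. IGF2, the growth factor gene next to H19 and expressed from the opposite parental copy, was highest in liver, at 2684 to 7506 CPM, 4.99-fold above fat (adjusted p = 5.17e-08) and 25.1-fold above pituitary gland. IGF2 in muscle, where H19 was highest, ranged from 373 to 2306 CPM and did not differ from fat beyond the spread (adjusted p = 0.847). SGCE, the sarcoglycan gene beside PEG10, ranged from 21.3 to 35.6 CPM in pituitary gland and did not differ there beyond the spread from fat (adjusted p = 0.428) or muscle (adjusted p = 0.344), and with the animal as a block 1 further pair, fat and muscle, passed the threshold (adjusted p = 0.0494). BLCAP, within which NNAT lies, had means of 234 CPM in pituitary gland and 241 CPM in muscle, which did not differ beyond the spread (adjusted p = 0.907). COPG2, which meets MEST at its end, was highest in pituitary gland by 1.48-fold over fat (adjusted p = 0.00965). The library kit does not mark strand, so reads where such genes overlap cannot be assigned by strand.

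The second comparison asked whether the genes differed between cows and bulls within a tissue (M1). None of the 9 genes passed an adjusted p of 0.05 by edgeR's likelihood ratio test in any of the tissues, where in liver, fat, muscle and pituitary gland 0.175%, 0.114%, 0.517% and 0.745% of all genes did. The quasi-likelihood test and DESeq2 also called none, although DESeq2 gave MEG3 in fat no adjusted p. An unadjusted p under 0.05 was found for 1 of 9 genes in liver (all genes, 7.45%), 2 in fat (6.88%), 2 in muscle (11%) and 1 in the pituitary (9.27%). In each tissue the cows and bulls overlapped for all 9 genes. The sexes did not overlap for 0.548%, 1.29%, 1.65% and 1.34% of all genes in these tissues, in the same order. The liver shares count the library labelled bull 3 as male. Without it, 0.464% of all genes passed the likelihood ratio test in liver, and the share without overlap was not computed.

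**Figure D3:**
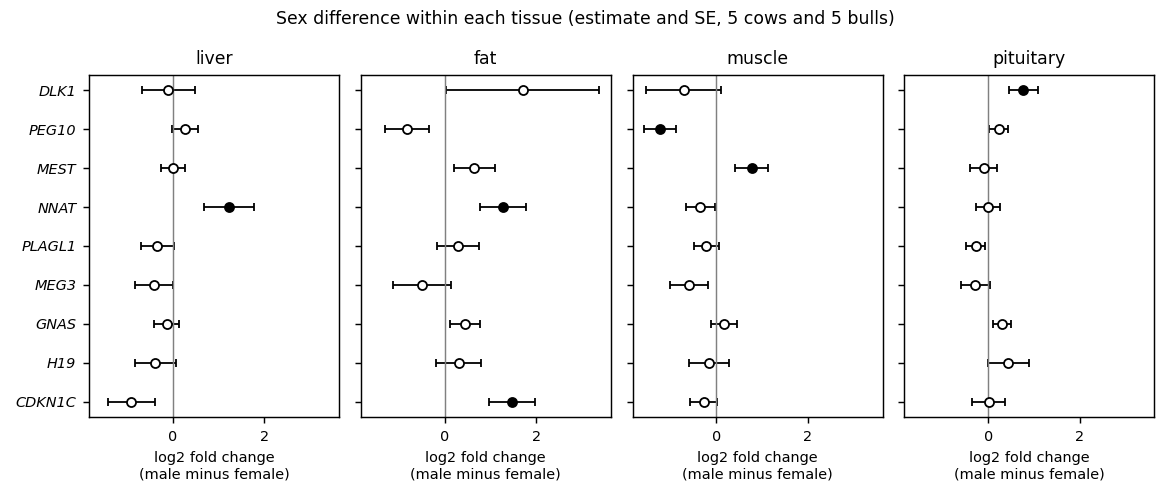
Log2 fold change of each gene from cows to bulls in each tissue (M1), with its SE, 5 cows and 5 bulls, where filled points have an unadjusted p under 0.05. None of the 36 differences passed an adjusted p of 0.05, and PEG10 in muscle, at -1.23, came nearest.

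PEG10 in muscle was nearest to the threshold. The cows 1 to 5 held 55.7, 28.3, 18.7, 34.1 and 46.8 CPM and the bulls 1 to 5 held 13.9, 16.8, 7.67, 17.2 and 22.4 CPM. Only cow 3 fell within the range of the bulls. The mean was 36.7 ± 14.7 CPM (SD, n = 5) in cows and 15.6 ± 5.4 CPM (SD, n = 5) in bulls. The log2 fold change was -1.23 ± 0.35 (SE, adjusted p = 0.0692 in the edgeR likelihood ratio test), with adjusted p = 0.296 in the quasi-likelihood test and 0.0572 in DESeq2. Without cow 3 or cow 4 the adjusted p was 0.0241 or 0.0228, and over the other animals left out it went up to 0.274. Connective tissue markers in these muscles summed to 2675 to 8471 CPM in cows and 2384 to 5344 CPM in bulls, with the highest sum in cow 1, which also had the highest PEG10. Leukocyte markers summed to 33.3 to 119 CPM in cows, with a median of 73.1 CPM, and to 14.5 to 54.3 CPM in bulls, with a median of 21.4 CPM. Markers of nerve and glia summed to 30.5 to 52.7 CPM in cows and 18.7 to 41.2 CPM in bulls. Those of endothelium did not lean toward cows, at 534 to 802 CPM in cows and 569 to 886 CPM in bulls. Nor did MYF5, a marker of muscle stem cells, with medians of 8.94 CPM in cows and 9.13 CPM in bulls. The part of these cells in the difference was not tested. In fat the log2 fold change of PEG10 was -0.83 ± 0.48 (adjusted p = 0.759), and -0.64 without bull 5. It was 0.27 ± 0.28 in liver, or 0.31 without the library labelled bull 3, and 0.23 ± 0.21 in pituitary gland.

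CDKN1C in fat had the reverse sign. The cows 1 to 5 held 42.7, 57.9, 103, 65.4 and 25.0 CPM and the bulls 62.1, 152, 262, 65.5 and 293 CPM. Bulls 2, 3 and 5 stood above all cows, and bulls 1 and 4 within them. The log2 fold change was 1.48 ± 0.51 (adjusted p = 0.429), and 1.18 without bull 5. Connective tissue markers in fat summed to 7784 to 14231 CPM in cows and to 9072 to 37140 CPM in bulls, with bull 5 at 9072 CPM. The markers of fat cells, 4 of 5 present, summed to 5448 to 12923 CPM in cows and 8986 to 23391 CPM in bulls. The part of these cells in the difference was not tested. In liver the log2 fold change of CDKN1C was -0.90 ± 0.52 (adjusted p = 0.779), or -0.73 without the library labelled bull 3. It was -0.28 ± 0.29 in muscle and 0.01 ± 0.36 in pituitary gland.

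**Figure D4:**
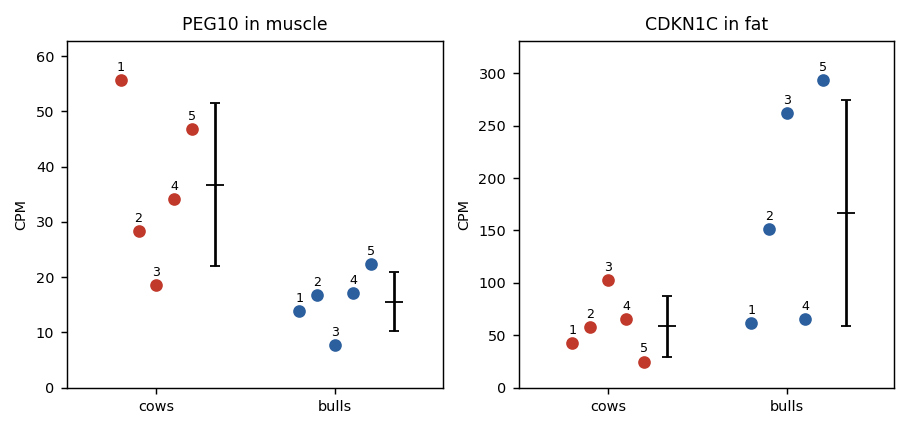
PEG10 in muscle and CDKN1C in fat, in CPM, for each cow and bull (numbered points), with the mean and SD of 5 animals. PEG10 in bulls lies between 7.67 and 22.4 CPM and in cows between 18.7 and 55.7 CPM; CDKN1C in bulls lies between 62.1 and 293 CPM and in cows between 25.0 and 103 CPM.

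NNAT had larger means in bulls in fat and in liver, but neither difference passed the adjusted threshold. In fat the cows 1 to 5 held 18.1, 75.5, 21.7, 36.9 and 22.8 CPM and the bulls 50.5, 34.8, 91.0, 78.4 and 174 CPM. The log2 fold change was 1.28 ± 0.50 (adjusted p = 0.559), and 0.86 without bull 5. In liver the bulls 1 to 5 held 76.5, 19.9, 7.09, 11.9 and 9.82 CPM and the cows 13.2, 15.01, 10.4, 11.4 and 5.06 CPM. The liver value rested on bull 1, since the log2 fold change was 1.22 ± 0.54 (adjusted p = 0.553) with it and 0.18 without it, and 1.45 without the library labelled bull 3. In pituitary gland, where NNAT was highest, cows had 8628 ± 2389 CPM (SD, n = 5) and bulls 8554 ± 2777 CPM (SD, n = 5), a log2 fold change of -0.01 ± 0.26.

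For MEST in muscle, 3.17 to 9.16 CPM in cows and 6.93 to 12.7 CPM in bulls, the log2 fold change was 0.77 ± 0.37 (adjusted p = 0.407). DLK1 in pituitary gland was 22.5, 35.5, 22.3, 37.2 and 49.6 CPM in cows 1 to 5 and 55.0, 33.9, 32.9, 104 and 60.0 CPM in bulls 1 to 5. Its log2 fold change was 0.77 ± 0.32 (adjusted p = 0.387), and 0.44 without bull 4, the animal with the highest value. In these glands the connective tissue markers summed to 289 to 404 CPM in cows and 383 to 1020 CPM in bulls. The hormone genes summed to 81945 to 265143 CPM in cows (median 124819 CPM) and to 143691 to 285260 CPM in bulls (median 257539 CPM). The part of either in the difference was not tested. MEG3, H19, PLAGL1 and GNAS had no unadjusted p under 0.05 in any tissue. Their log2 fold changes lay between -0.60, of MEG3 in muscle, and 0.45, of GNAS in fat.

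Over the 4 tissues together (M2), none of the 9 genes passed the threshold, beside 1.69% of all genes, and 2 of 9 had an unadjusted p under 0.05, beside 16.7% of all genes. These were PEG10 with a log2 fold change of -0.39 ± 0.19 (adjusted p = 0.285) and NNAT with 0.53 ± 0.25 (adjusted p = 0.273). DESeq2 and the quasi-likelihood test called none either. The sex difference itself was then compared between tissues by the interaction of sex and tissue. None of the 9 genes passed it (background 0.335%), and 3 had an unadjusted p under 0.05 (background 8.58%), PEG10 (adjusted p = 0.156), NNAT (adjusted p = 0.409) and CDKN1C (adjusted p = 0.0774). For CDKN1C the adjusted p was 0.0455 without bull 1, 0.0239 without bull 4 and 0.0296 without cow 4, and it reached 0.384 without bull 3. With the animal as a block in limma it was 0.506, and DESeq2 gave 0.0899.

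Among the 27 other imprinted genes, none passed the threshold in M1, M2 or the interaction by the likelihood ratio test or the quasi-likelihood test. An unadjusted p under 0.05 in the likelihood ratio test was found for 1 in liver (all genes, 7.45%) and 2 in fat (6.88%). It was found for 4 in muscle (11%), 2 in pituitary gland (9.27%), 3 in M2 (16.7%) and 5 in the interaction (8.58%). DESeq2 called 2 of the 27, named here after their values were seen. Of all genes it called 1.03% in pituitary gland and 2% in M2. TFPI2, an inhibitor of serine proteases, had a log2 fold change of 1.42 ± 0.41 in pituitary gland (likelihood ratio test, adjusted p = 0.0644, DESeq2 adjusted p = 0.0471) and of 0.63 ± 0.19 in M2 (adjusted p = 0.0567, DESeq2 0.0490). SNRPN, a spliceosomal protein gene, had 0.50 ± 0.15 in M2 (adjusted p = 0.0572, DESeq2 0.0400).

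The animals also differed from each other within a tissue. The spread was taken as the SD of log2(CPM + 1) over 10 animals and ranked among the 9908 to 10434 genes with a mean of at least 1 CPM in that tissue. DLK1 in muscle had an SD of 1.44, above that of 98.9% of genes, with 16.4 CPM in cow 2, 31.6 in cow 4, 12.96 in bull 3 and 11.9 in bull 5 against 0.690 to 4.31 CPM in the other 6 animals. H19 in pituitary gland ranked above 97.5% of genes, NNAT in liver above 96.6%, DLK1 in pituitary gland above 93.2% and CDKN1C in fat above 92.3%. At the other end, MEST in liver, with an SD of 0.24, ranked above 6.04% of genes, and GNAS ranked between 11.9% and 29.6% in the 4 tissues. Of 35 values of gene and tissue ranked, 22 lay above the median gene. DLK1 in fat was not ranked.

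**Figure D5:**
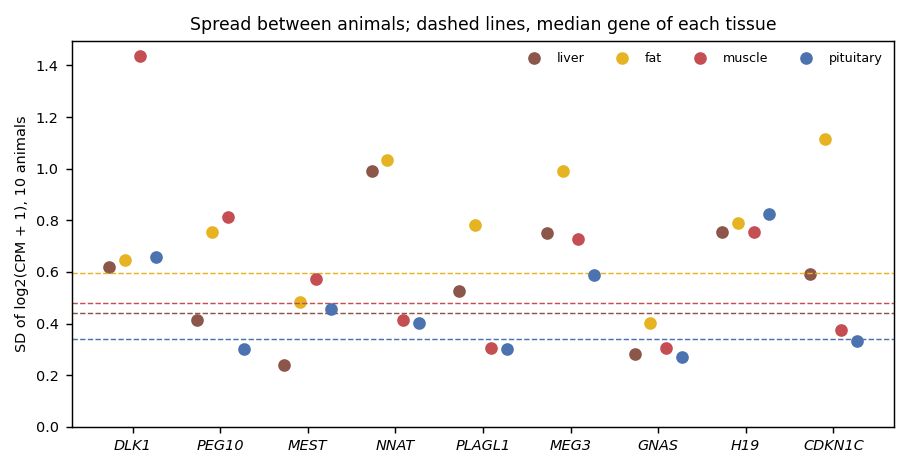
SD of log2(CPM + 1) over 10 animals for each gene (horizontal axis) and tissue (colour); dashed lines show the median gene of each tissue. DLK1 in muscle, at 1.44, stands highest, and GNAS lies below the median gene in each tissue.

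Neighbouring imprinted genes were compared across the 10 animals of each tissue, in 6 pairs and 23 correlations of log2(CPM + 1), while DLK1 with MEG3 in fat was left out for low counts. None of the 23 had an adjusted permutation p under 0.05, and 16 were positive. DLK1 and MEG3, neighbours with opposite parental expression, gave Pearson r = 0.54 in liver (Spearman rho = 0.48, permutation p = 0.103 and 0.165), 0.57 in muscle (rho = 0.32, permutation p = 0.0827 and 0.369) and -0.46 in pituitary gland (rho = -0.33, permutation p = 0.181 and 0.351), each with an adjusted p of 0.568 for r. Without the 2 animals farthest from the median of DLK1, r was 0.73 in liver, 0.14 in muscle and -0.61 in the pituitary. PEG10 and SGCE in muscle gave the largest r, 0.63 (rho = 0.62, permutation p = 0.0503 and 0.0604, adjusted p = 0.568 and 0.522), which rested on 2 animals, since r was 0.08 without them and 0.34 within sexes. H19 and IGF2 gave r of -0.08, 0.29, -0.26 and 0.54 and rho of -0.21, 0.53, -0.12 and 0.64 in liver, fat, muscle and pituitary, with permutation p of r between 0.108 and 0.837. Without the 2 animals farthest from the median of H19, these r were 0.22, 0.79, -0.099 and 0.68. With 10 animals, relations of this size cannot be told apart from none.

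The genes most like each of the 9 across animals were taken by Pearson r after the mean of each tissue was subtracted, over 40 libraries and 10945 genes. These values are descriptions, since the libraries share animals, depth and tissue pieces. PLAGL1 was most like SDC3 (r = 0.82), ARHGAP6 (0.82) and SYNJ1 (0.82), and MEG3 most like DGKA (0.81), TMEM86B (0.78) and KLHL17 (0.77). DLK1 was most like ADAMTSL2 (0.72), ZNF511 (0.69) and BCKDK (0.68), and GNAS most like DYM (0.71), TSPAN7 (0.66) and EI24 (0.66). MEST was most like HS1BP3 (0.70), PLOD1 (0.69) and AKR7A2 (0.66), PEG10 most like UST (0.68), MYOF (0.65) and STX3 (0.64), and CDKN1C most like DDAH2 (0.68), CSRP1 (0.67) and PVALB (0.66). The values were lowest for NNAT, with CHST10 (0.59), ORAI1 (0.59) and S100G (0.58), and for H19, with PTRF (0.59), CNDP2 (0.58) and EHBP1L1 (0.56). Within single tissues these r varied, and NNAT with S100G gave 0.91 in liver but 0.14 in muscle and -0.46 in pituitary gland, where NNAT was highest. NNAT with ORAI1 gave 0.88 in liver and 0.017 in muscle. None of these genes was another of the 9 or on the list of other imprinted genes. Among the 9 themselves, DLK1 and MEG3 gave r = 0.38, and DLK1 and MEST 0.56.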

How the data were processed

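Poly-A RNA of 40 samples was sequenced in paired ends. The authors trimmed the reads with Trimmomatic, aligned them to bosTau7 with Bowtie2 in TopHat2 and counted uniquely aligned reads per gene with HTSeq, and deposited raw counts; the counting mode is not given in the sources used here. Each table has a line without a gene name, 0.114% to 2.69% of reads, which was left out. Groups came from the labels, and 13148 of 13570 genes had a read in some sample and were kept. The pairs of neighbouring genes were set beforehand as known neighbours. RefSeq (ARS-UCD2.0) gave symbols and chromosomes, with 13387 symbols matched and no coordinates used, since the build differs.

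M1, M2 and their interaction were tested with edgeR 4.0.16 (R 4.3.3) likelihood ratio tests, as in the study, and pairs of tissues with its quasi-likelihood test over all 40 samples with sex as a term. TMM factors, a prior count of 0.125, and Benjamini-Hochberg adjustment over 13148 genes with a threshold of 0.05 were used. Levels in M1 are scaled over 40 samples, while its fold changes use the factors of the tissue. Correlations used log2(CPM + 1) and 100000 two-sided permutations. DESeq2 1.42.0, limma 3.58.1, other scalings, filterByExpr and leave-outs were alternatives. The tissues of an animal are paired by ear tag; cow 1 and bull 1 are not. The consensus correlation within animals was 0.104 in M2 and 0.112 in the interaction model. The scripts were tested on simulated data. The p-values of M1 measure the spread between animals. Those of M2, the interaction and the pairs of tissues measure the spread between libraries. They treat the 4 libraries of an animal as independent, except where the animal is a block. Floors cover counting error only.

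The 9 genes, the lists and the rule were chosen with earlier results of these data known. Named were every gene of the list present, those other imprinted genes called, those paired with a member in the correlations and the 3 with the smallest adjusted p for their highest tissue, and the 3 genes most like each member.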

Additional observations from a re-analysis of the deposited data

Results flagged for a closer look

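The highest or lowest animal of a group of 5 was compared with its nearest neighbour by Dixon's ratio, gap over range, in 72 groups (9 genes, 4 tissues and 2 sexes). The ratio was above 0.71 in 10 groups, each time at the high end. Chance gives about 1 in 20 groups for normally distributed values, but CPM are skewed to the high end. On the log2(CPM + 1) scale, chosen after seeing the data, 4 of the 72 groups were above it, 2 at the high end and 2 at the low end. Of the 10, only DLK1 in fat of cows and H19 in pituitary gland of cows were above it on both scales. The samples of an animal are not independent across genes or tissues.

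MEG3 gave 4 of the 10. In cow 4 it was 188 CPM in fat, against at most 30.5 CPM in the other cows, and 111 CPM in muscle, against at most 45.8 CPM. Nerve and glia markers summed to 27.7 CPM in that fat library and to 5.27 to 10.6 CPM in the fat of the other cows, and the muscle library had the lowest TMM factor of the 40, 0.518. DLK1, its neighbour, stood out in the same fat library of cow 4 at 0.986 CPM, with at most 0.0650 CPM in the other cows, of which 3 had no read. In pituitary gland MEG3 was 974 CPM in cow 3, against at most 665 CPM in the other cows, and 1129 CPM in bull 5, against at most 489 CPM in the other bulls. These were the 2 pituitary libraries with the lowest mean correlation with the others, 0.962 and 0.965 against 0.971 to 0.978. In the pituitary library of bull 5 the markers of connective tissue (1020 CPM), leukocytes (48.1 CPM) and liver (175 CPM) were also the highest of the 10. The part of these in the values was not tested.

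H19 gave 4 more. It was 27.7 CPM in the liver of bull 2, against at most 11.002 CPM in the other bulls, and 420 CPM in the fat of the same bull, against at most 187 CPM. It was 340 CPM in the fat of cow 2, against at most 141 CPM in the other cows, and 39.1 CPM in the pituitary gland of cow 5, against at most 11.7 CPM. NNAT in the liver of bull 1 was 76.5 CPM, against at most 19.9 CPM in the other bulls.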

How the results depend on the processing

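The tissue differences of the 9 genes changed little. Outside the leave-outs, 424 of 432 values kept their direction and side of the threshold, and none reversed. The 8 others arose with library sizes alone in place of TMM factors, which moved the median of all genes by up to 0.86 on the log2 scale between muscle and pituitary gland, or without the fat library of bull 5. With library sizes alone, H19 and CDKN1C passed the threshold between liver and pituitary gland (adjusted p = 0.00548 and 0.00106), MEG3, PLAGL1 and GNAS between fat and muscle, and PEG10 and MEST lost it there (0.438 and 0.232). Without the liver library labelled bull 3, no call between tissues changed. The replicate block on the animal changed no call of the 9 genes between tissues.

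Of the sex differences, 253 of 259 values kept direction and side, and no interaction of 72 changed. The other 6 reversed: with library sizes alone, MEST in liver was -0.16, CDKN1C in pituitary gland -0.086, H19 in M2 -0.029 and CDKN1C in M2 -0.025, with filterByExpr MEST in liver was -0.0095, and without the library labelled bull 3, DLK1 in liver was 0.12. The number of genes called in M1 was 1, 3, 7 and 12 in liver, fat, muscle and pituitary gland with the quasi-likelihood test, 77 in M2 and 0 in the interaction. It was 13 in liver and 6 in fat with filterByExpr, 28 in fat with DESeq2, 61 in liver without the library labelled bull 3, 74 in the interaction without the fat of bull 5, and 56 in pituitary gland and 717 in M2 with library sizes alone. With the animal as a replicate block in limma-voom it was 8 in M2 and 13 in the interaction. The causes were not tested.

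Over the fits that leave out 1 animal, the number of genes called ranged from 10 to 187 in liver, 5 to 22 in fat, 25 to 553 in muscle, 54 to 231 in pituitary gland, 57 to 714 in M2 and 9 to 197 in the interaction. Of the 9 genes, 0 to 1 passed in muscle and 0 to 1 in the interaction. Log2 fold changes that turned sign ranged in liver from -0.78 to 0.15 for DLK1 and -0.10 to 0.062 for MEST, in fat from -0.73 to 0.84 for MEG3 and -0.17 to 0.80 for H19, in muscle from -1.15 to 0.22 for DLK1, -0.35 to 0.27 for H19 and -0.025 to 0.26 for GNAS, in pituitary gland from -0.26 to 0.25 for MEST, -0.20 to 0.16 for NNAT and -0.18 to 0.24 for CDKN1C, and in M2 from -0.20 to 0.18 for H19. Between tissues NNAT ranged from -0.030 to 0.78 (muscle minus liver) and MEG3 from -0.36 to 0.11 (muscle minus fat). None of these passed the threshold with all animals, and of the fits that left out 1 only NNAT without bull 1 did (adjusted p = 0.0452).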
